A study of Mus musculus with 84 samples.

Results

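Annotated mouse gene models that have no formal name carry a symbol made of Gm and a number, and many of them are one uninterrupted exon lying inside the intron of a larger gene. The features described here are the gene IDs of that kind: a Gm symbol, 1 exon record, an autosomal position, and a span wholly inside that of a gene with 2 or more exon records on the same strand. They were chosen by position and by a measured value, a sum of 10 or more counts over all 32 RNA libraries. The rule found 2057 features among the 55401 gene IDs counted, and 3893 before the count rule, of which 1160 had no count. The enclosing gene is called the host, and the hosts number 1325.

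RNA was sequenced from nuclei of the frontal cortex of 129S6/SvEvTac mice aged 12 weeks, sorted for NeuN, an RNA-binding protein of most neuronal nuclei. Control mice received vehicle (VEH), and the other groups received 1 injection of DOI, 2,5-dimethoxy-4-iodoamphetamine, a psychedelic that activates serotonin 2A receptors, 24 h, 48 h or 7 days before sampling. Each group had 4 mice with RNA data and each mouse 2 libraries, 16 mice and 32 libraries in all. H3K27ac chromatin samples of the same series were not analysed here. Libraries held 2763704 to 7436451 counts. The neuronal genes Snap25 (2043 to 4334 CPM) and Rbfox3 (46.3 to 115 CPM), which encodes NeuN, were counted in every mouse, and the endothelial gene Cldn5 did not exceed 0.609 CPM. Glial transcripts were present at low levels, with Mbp, a myelin protein, at 54.5 to 187 CPM and Cx3cr1, a microglial receptor, at 7.42 to 36.4 CPM. CPM are counts scaled to library size with TMM factors, which equalise library composition. The file headers of 3 mice (24 h mouse 1, 48 h mouse 2 and 7 day mouse 2) carry another mouse number of the same group than the labels do. The labels give separate mice, so p-values measure the spread between mice.

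A gene is transcribed as a precursor that holds exons and introns, and the introns are then spliced out and degraded in the nucleus. Nuclear RNA therefore carries intron sequence that cytoplasmic messenger RNA lacks. A read in an intron counts toward no exon of the host, but where an annotated feature lies there it counts toward that feature. The counting gave no weight to strand, so a Gm feature, the unspliced host and any opposite-strand transcript over the same bases cannot be told apart. Of the 2057 features, 1993 (96.9%) had no base on an exon of their host, and 57 overlapped an exon of an opposite-strand gene. Their median length was 1551 bases, from 43 to 9720, and their median distance to the nearest host exon was 4546 bases. RefSeq had no entry for 1598 of them, called 276 pseudogenes, 103 small nucleolar RNAs and 42 small nuclear RNAs. Protein-coding hosts held 1838 features and long noncoding hosts 130. At the count limit, Gm26418 in Col19a1, Gm22682 in Col25a1 and Gm25259 in Lrfn3 entered with 10 counts, and Gm26132 in St3gal2, Gm26079 in Ep400 and Gm12482 in Olfr275 stayed out with 9.

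Stretches of 4 features are shown because they lie at 2 kinds of place in the host: the first pair at the start of the host, where the features were lower after DOI, and the second pair deep inside the host, where they were higher. The sequences are RefSeq start windows (GRCm38.p6), 250 bases before to 50 after a transcript start, written on the strand of the Gm feature, and capitals mark the bases inside it. The third is the reverse complement of the window of 1700080N15Rik, a gene of the opposite strand that starts inside Gm37814. These 4 were picked after their values had been seen.
Gm49628 in Vezt (chr10:94035693-94035992, minus strand): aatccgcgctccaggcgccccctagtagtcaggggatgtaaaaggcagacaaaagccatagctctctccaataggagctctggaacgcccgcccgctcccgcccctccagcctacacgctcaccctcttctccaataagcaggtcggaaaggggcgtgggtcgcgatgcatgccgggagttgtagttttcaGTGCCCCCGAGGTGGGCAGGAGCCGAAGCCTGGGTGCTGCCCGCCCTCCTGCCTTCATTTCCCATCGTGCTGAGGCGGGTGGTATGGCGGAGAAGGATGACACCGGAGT
Gm43511 in Mrps18c (chr5:100798509-100798808, plus strand): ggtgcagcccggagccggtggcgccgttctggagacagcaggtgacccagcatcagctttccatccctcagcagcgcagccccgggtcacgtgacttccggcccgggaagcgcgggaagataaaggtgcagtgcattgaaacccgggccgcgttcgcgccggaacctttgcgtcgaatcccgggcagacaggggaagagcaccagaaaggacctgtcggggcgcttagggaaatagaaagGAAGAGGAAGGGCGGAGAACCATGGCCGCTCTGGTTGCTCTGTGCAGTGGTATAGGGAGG
Gm37814 in Frmd4a (chr2:4141092-4141391, plus strand): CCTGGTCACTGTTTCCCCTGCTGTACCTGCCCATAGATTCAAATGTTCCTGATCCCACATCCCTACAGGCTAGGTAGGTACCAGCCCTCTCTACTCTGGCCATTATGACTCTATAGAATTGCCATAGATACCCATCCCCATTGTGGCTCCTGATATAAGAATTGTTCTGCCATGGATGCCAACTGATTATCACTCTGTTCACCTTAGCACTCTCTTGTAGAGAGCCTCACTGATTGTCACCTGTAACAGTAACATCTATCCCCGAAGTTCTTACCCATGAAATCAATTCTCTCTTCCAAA
Gm20172 in Adgrb3 (chr1:25277905-25278204, minus strand): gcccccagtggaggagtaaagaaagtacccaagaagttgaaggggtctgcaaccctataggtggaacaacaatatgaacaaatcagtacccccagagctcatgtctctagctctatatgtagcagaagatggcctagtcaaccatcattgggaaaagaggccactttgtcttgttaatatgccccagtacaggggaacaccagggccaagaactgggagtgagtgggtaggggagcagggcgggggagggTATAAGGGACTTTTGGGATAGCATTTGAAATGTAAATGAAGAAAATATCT

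The windows at the host starts were rich in G, C and the pair CG: the Vezt window had 62.3% G or C and 20 CG pairs, and the Mrps18c window 63.3% and 24. The Gm37814 stretch had 45.7% G or C and 1 CG pair, and the Gm20172 window 47.7% and 1. Over 32817 RefSeq windows of 300 bases the medians were 52.7% and 7 CG pairs. As many CG pairs as at Vezt, or more, were found in 26.5% of the windows, and 1 or none in 14.1%. These are descriptions of base content and no site was inferred.

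Gm49628 is 1790 bases long, 299 of them on exons of Vezt, which encodes the adherens junction protein vezatin. It was counted at 11.9, 7.96, 12.1 and 12.0 CPM in the vehicle mice, 3.50, 3.87, 0.887 and 2.60 at 24 h, 0.869, 0.837, 2.08 and 1.33 at 48 h, and 10.8, 1.57, 8.29 and 1.40 at 7 days. No mouse at 24 h or 48 h reached the vehicle range, and at 7 days mice 1 and 3 lay inside it and mice 2 and 4 far below. The log2 fold change was -2.02 ± 0.58 (SE, n = 4 against 4 mice) at 24 h (edgeR adjusted p = 0.0197), while Vezt itself had 0.36 (adjusted p = 0.118). No test is given at 48 h, where the feature had at most 14 counts in a mouse. The 24 h call was lost without 24 h mouse 4 (edgeR adjusted p = 0.0534). Gm43511 overlaps an exon of Mrps18c, a mitochondrial ribosomal protein. Its vehicle values of 19.2, 24.3, 24.0 and 22.3 CPM lay above 5.18 to 9.23 at 24 h and 3.62 to 10.2 at 48 h, and at 7 days the mice had 20.8, 7.17, 22.8 and 5.04. Its log2 fold changes were -1.51 ± 0.42 and -1.61 ± 0.42 (edgeR adjusted p = 0.0157 and 0.00980). Mrps18c itself had -0.32 and -0.54 (edgeR adjusted p = 0.341 and 0.0948). Relative to Mrps18c the feature had -1.18 and -1.14, neither of them called (limma adjusted p = 0.0656 and 0.0677).

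Gm37814 lies 10236 bases from an exon of Frmd4a, a FERM domain scaffold of cell polarity. It was counted at 4.53, 5.57, 13.7 and 9.34 CPM in vehicle mice and 32.1, 29.2, 23.5 and 38.7 at 24 h, with 8.72, 62.8, 5.25 and 42.1 at 7 days. All 4 mice at 24 h were above all 4 vehicle mice, and its log2 fold change was 1.90 ± 0.57 (edgeR adjusted p = 0.0228) beside 0.13 for Frmd4a. That call was lost without vehicle mouse 1 or 2 or 24 h mouse 4 (adjusted p = 0.0742, 0.0696 and 0.0598). Gm20172 lies 47304 bases from an exon of Adgrb3, an adhesion receptor of synapses. It rose by 1.33 ± 0.46 at 24 h (adjusted p = 0.0415), and its lowest 24 h mouse, 6.04 CPM, overlapped the highest vehicle mouse, 6.68. That call was lost without any 1 of vehicle mice 1, 2 and 4 or 24 h mice 1, 2 and 4 (adjusted p = 0.0524 to 0.130). Over all features, 5 overlapped a RefSeq start window of their own host: besides Gm49628 and Gm43511 these were Gm49493 in Mesd, Gm7265 in Nedd4 and Gm42671 in Golph3l. The log2 fold changes at 24 h were -0.95 for Gm49493 and -0.31 for Gm7265 (edgeR adjusted p = 0.227 and 0.669), and Gm42671 was not tested.

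The features together took a larger share of the counts after DOI. They held 0.371%, 0.428%, 0.665% and 0.633% of the counts of the vehicle mice, 1.57%, 1.00%, 0.898% and 1.38% at 24 h and 1.16%, 1.88%, 1.62% and 0.972% at 48 h. Neither group overlapped the vehicle mice. At 7 days the shares were 0.423%, 1.40%, 0.563% and 1.62%, so mice 1 and 3 lay within the vehicle range, mouse 2 within the 24 h range and mouse 4 just above it. Summed over all 2057 features, with no filter, the mean was 5472 ± 1432 CPM (SD, n = 4) in vehicle, 11831 ± 3130 at 24 h (2.16 times vehicle), 13800 ± 4132 at 48 h (2.52 times) and 9950 ± 5644 at 7 days (1.82 times). The hosts' summed CPM moved far less, from 133587 ± 4507 to 142547 ± 8878 at 24 h (1.07 times), with overlap between the groups, and to 146757 ± 5846 at 48 h (1.10 times), without overlap. Scaled per kilobase, the features had 9.11 to 15.3 CPM for every 100 CPM of host in the vehicle mice, 19.5 to 30.3 at 24 h, 20.4 to 37.9 at 48 h, and 10.4, 28.6, 13.7 and 31.6 at 7 days.

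Measures of RNA and library make-up differed between the groups too. A feature annotated as an 18S ribosomal RNA pseudogene, CT010467.1, took 0.00694% to 0.0101% of the counts in vehicle mice, 0.328%, 1.33%, 0.872% and 1.57% at 24 h and 1.66%, 0.523%, 1.49% and 1.30% at 48 h. Within each of these 2 groups the mouse with the largest share of Gm features (24 h mouse 1, 48 h mouse 2) had the lowest 18S share. At 7 days it took 0.00834% and 0.00607% in mice 1 and 3, and 0.633% and 0.474% in mice 2 and 4. The nuclear noncoding RNA Malat1 took 2.29% to 3.11% in vehicle mice, 6.18%, 2.91%, 4.00% and 5.38% at 24 h and 2.82%, 7.4%, 6.13% and 2.88% at 48 h, highest in 24 h mouse 1 and 48 h mouse 2. Mitochondrial transcripts took 0.0171% to 0.0701% in vehicle mice, 0.0621% to 0.101% at 24 h, and between 0.108% and 0.268% of the counts at 48 h. The 7 day mice lay between 0.0210% and 0.130%. All 4 mice at 48 h were above all 4 vehicle mice, and the other groups overlapped vehicle. Total counts per mouse were 9151680 to 11517452 in vehicle, 6441396 to 8090559 at 24 h and 5834248 to 7344355 at 48 h. Cell type markers moved as well. Rbfox3 was at 46.3 to 68.1 CPM in vehicle mice, 88.4 to 115 at 24 h, 83.9 to 109 at 48 h, and 59.6, 112, 59.3 and 84.0 at 7 days. The neuron list of Rbfox3, Snap25 and Syt1 summed to 4932 to 5340 CPM in vehicle mice, from 3426 up to 5220 in those at 24 h, from 3182 up to 5091 in those at 48 h, and between 3793 and 5205 at 7 days, so the groups overlapped and most DOI mice were below vehicle. The 4 excitatory neuron markers summed to 396 to 461 CPM in vehicle mice, 773 to 2296 at 24 h, 1320 to 2053 at 48 h, and 404, 1291, 384 and 1134 at 7 days, although 1 of them, the vesicular glutamate transporter Slc17a7, was lower at 24 h (57.7 to 110 CPM) than in vehicle mice (129 to 171). Gad1, a GABA-synthesising enzyme, was at 529 to 706 CPM in vehicle mice and 290 to 448 at 24 h, while the inhibitory list overlapped. Mbp was at 79.8 to 159 and 54.5 to 69.1 CPM, while the summed oligodendrocyte, astrocyte and microglia lists overlapped between those groups. Striatal neuron markers summed to 78.1 to 111 CPM in vehicle mice, 51.6 to 58.8 at 24 h and 46.1 to 133 at 48 h, and at 7 days to 166, 347, 102 and 278, highest in mice 2 and 4. The part of these markers and of the mitochondrial share in the result was not tested. The 18S share separates the vehicle mice from every mouse at 24 h and 48 h, so it and the injection cannot be told apart in those groups.

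**Figure D1:**
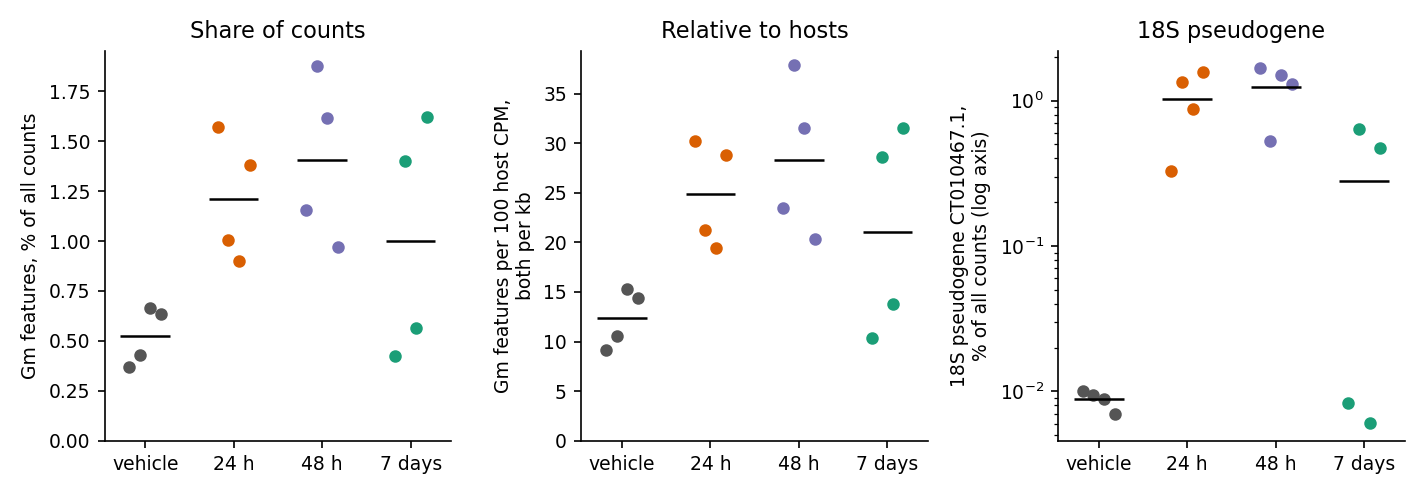
Each point is 1 mouse, in the order of its number within the group, and the bar is the group mean. Left: Gm features as a percentage of all counts; middle: CPM of the features per 100 CPM of their hosts, both per kilobase; right: the 18S pseudogene as a percentage of counts on a log axis. In all 3 panels mice 1 and 3 at 7 days sit at vehicle levels (0.423% and 0.563% in the left panel) and mice 2 and 4 above them.

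Single features were tested with edgeR in a fit over the 4 groups. Of the 2057, 1178 passed edgeR's filter on low counts and 879 did not; 746 of those tested had 10 or more counts in at least 3 vehicle mice, and 258 had that many in at least 3 of the 24 h mice but not in the vehicle mice, while 93 had it in 3 vehicle mice but not in 3 of the 24 h mice. Features that passed only where they were high had to differ, so the counts that follow are descriptions. At 24 h, 390 of the 1178 (33.1%) were called higher and 33 (2.8%) lower, where 13.8% and 10.4% of all 17941 tested genes were called. At 48 h, 484 (41.1%) were higher and 30 (2.55%) lower, beside 16.8% and 13.3% of all tested genes. The median log2 fold change of the tested features was 1.22 at 24 h and 1.40 at 48 h, against 0.03 and 0.02 for all tested genes and 0.06 and 0.12 for the 1227 tested hosts. Among the 746 counted in vehicle mice, 208 rose and 33 fell at 24 h, with a median of 0.78, and 272 rose and 30 fell at 48 h, with a median of 0.97. All features that fell are in this subset, which is chosen on vehicle counts. The same restriction was not applied to all tested genes, so these counts have no share to be read against.

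Nothing passed the threshold at 7 days, where 0% of all tested genes were called. The smallest adjusted p of a feature was 0.0960. An unadjusted edgeR p under 0.05 was reached by 415 of the 1178 features (35.2%) and by 16.8% of all tested genes, and the median log2 fold change was 0.91 for the features and 0.02 for all tested genes. DESeq2 called 167 features at 7 days, beside 4.44% of all genes it tested, and edgeR without the filter on low counts called 260 of 2057, beside 2.62%. Leaving out 7 day mouse 1 gave 254 calls among 1256 features, beside 7.26% of all tested genes, and leaving out mouse 3 gave 198 among 1252, beside 6.28%. The count of 0 at 7 days thus changed with the filter, with the method and with those 2 mice. The 3 DOI groups share the vehicle mice. Between DOI groups no feature was called, beside 0%, 0.00557% and 0% of all tested genes for 24 h against 48 h, 24 h against 7 days and 48 h against 7 days: by edgeR the unadjusted p was under 0.05 for 12 features between 24 h and 48 h, for 74 between 24 h and 7 days and for 113 between 48 h and 7 days, beside 1.88%, 14.2% and 16.5% of all tested genes.

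With the log2 18S share as a covariate, edgeR called 0 features and 0% of all tested genes at 24 h and at 48 h. An unadjusted edgeR p under 0.05 was reached by 52 features at 24 h and 37 at 48 h, beside 4.85% and 3.82% of all tested genes. The medians of the features were -0.07 and 0.04. The number of calls at 24 h, 423 in both directions, fell to 223 without vehicle mouse 1, 219 without vehicle mouse 2, 261 without 24 h mouse 1 and 236 without 24 h mouse 4. These were 17.8%, 17.5%, 21% and 19.2% of the features tested, beside 13.9%, 14.1%, 17.4% and 13.9% of all tested genes. In the main fit 4346 of all 17941 genes were called. At 48 h, 514 fell to 319 without vehicle mouse 1 and 339 without vehicle mouse 2. These were 25.5% and 27.1% of the features tested, beside 19% and 19.4% of all tested genes. Without the 3 mice whose headers carry another number, an alternative added after the data had been seen, 267 features were called at 24 h and 393 at 48 h. These were 22.3% and 32.8% of the features tested, beside 19.4% and 25.2% of all tested genes.

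**Figure D2:**
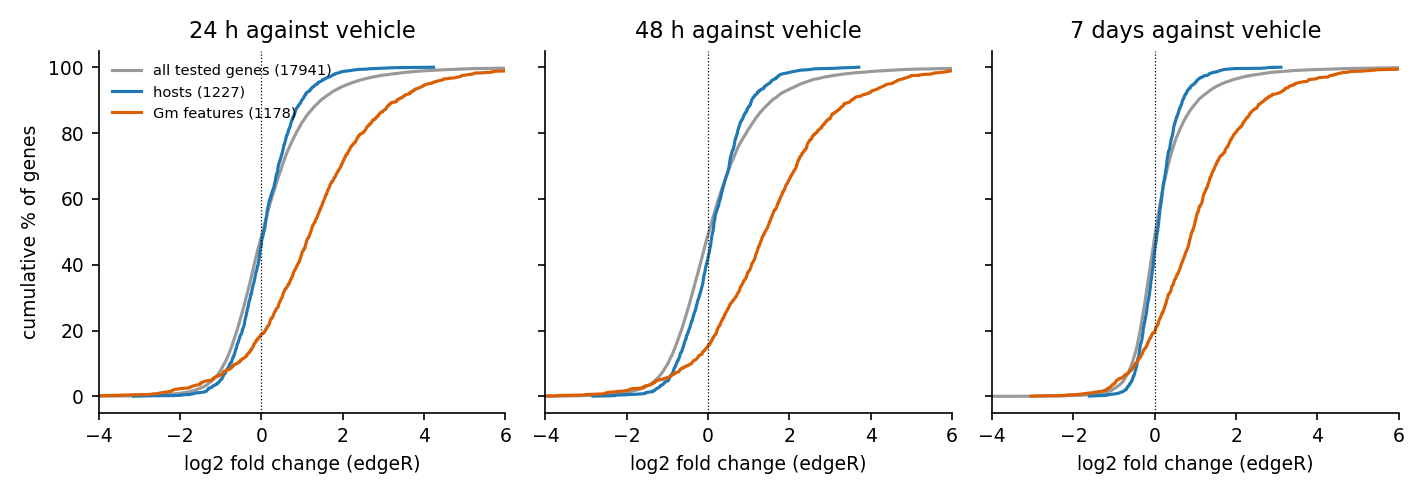
Cumulative percentage of genes (vertical axis) by log2 fold change against vehicle (horizontal axis, edgeR) for the tested Gm features (1178), their tested hosts (1227) and all tested genes (17941), one panel per time. The curve of the features lies to the right of the others at each time, with medians of 1.22, 1.40 and 0.91.

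Hosts were set beside their features. Of the 390 higher at 24 h, the host was not called for 242, higher for 104, lower for 36 and not tested for 8. The host was thus not called for 62.1% of the features that rose, beside 69.3% (523 of 755) of the tested features that were not called. Of the 33 lower, the host was not called for 24, higher for 5, lower for 3 and not tested for 1. Across 1150 features tested with their host, the log2 fold changes of feature and host had Pearson's r = 0.10 and Spearman's rho = 0.11 at 24 h, and 0.13 and 0.14 at 48 h; these are descriptions over features that share the same libraries.

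The log2 ratio of feature to host was tested with limma in each mouse, over 1746 pairs of a nested feature of any name and its host on either strand. Of the 1150 Gm features in that test, 347 (30.2%) rose relative to the host at 24 h and 45 (3.91%) fell, beside 28.9% and 4.47% of all pairs. At 48 h, 393 (34.2%) rose and 43 (3.74%) fell, beside 32.9% and 4.47%. All pairs include the 1150 features themselves. Among the 227 other pairs on the same strand, 18.9% rose and 7.49% fell at 24 h, and 26.0% and 6.61% at 48 h. Among the 369 pairs on opposite strands, 31.2% rose and 4.34% fell at 24 h. Differences between these sets were not tested. At 7 days 0 of the features and 0% of all pairs were called by limma (200 features and 17.8% of all pairs at an unadjusted p under 0.05; smallest adjusted p = 0.264). Without 7 day mouse 1 the count was 107, without mouse 3 it was 24, and by edgeR with the host count as offset it was 66, beside 7.94%, 1.86% and 6.53% of all pairs. With the 18S share as a covariate, added after the data had been seen, limma called no feature at either time (unadjusted p under 0.05 for 41 at 24 h and 26 at 48 h, beside 3.55% and 2.52% of all pairs).

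**Figure D3:**
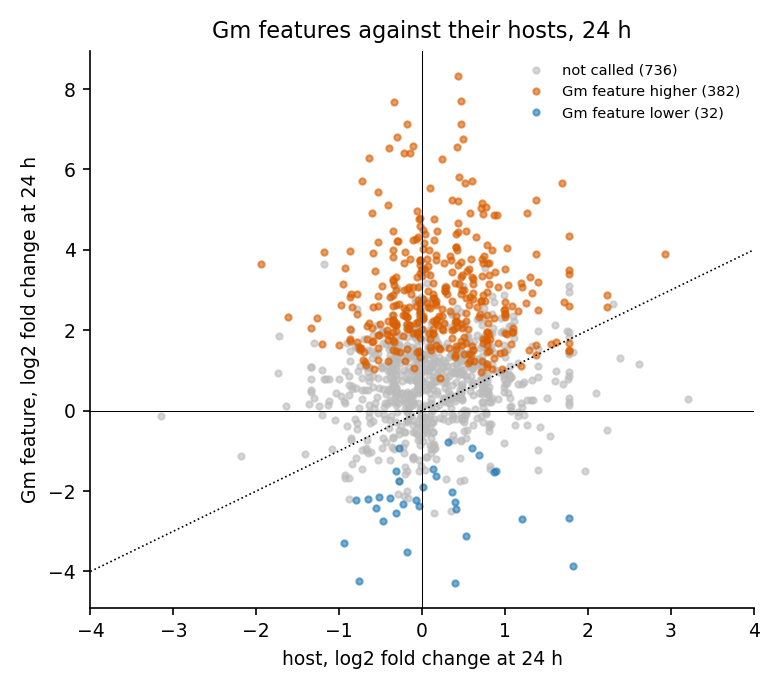
Each point is 1 of 1150 Gm features tested together with its host: log2 fold change of the host (horizontal) and of the feature (vertical) at 24 h. The dotted line marks equal change, and 382 features called higher lie above 0 over a wide range of host values.

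Other features at comparable places give a scale for these values. The 1004 single-exon Gm features inside genes of the opposite strand only had summed CPM 1.75 times vehicle at 24 h, with 106 of 304 tested called higher and 9 lower, and a median of 1.31. The 537 other nested single-exon features on the strand of their host had 1.59 times vehicle, with 58 of 261 higher and 14 lower. The 1487 single-exon Gm features outside any multi-exon gene had 1.18 times vehicle, with 50 of 480 higher and 23 lower, and a median of 0.25. The 64 members that touch a host exon had 1.2 times vehicle. The differences between these classes were not tested.

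The changes were larger farther from the host's exons. The features were divided by distance into 4 groups of 514 or 515. In the group nearest to a host exon (0 to 1029 bases), summed CPM at 24 h was 1.34 times vehicle, with overlap between the mice. It was 1.75 times in the second group (1040 to 4546 bases), 2.26 times in the third (4574 to 18304 bases) and 3.28 times in the farthest (18365 bases or more), and none of these 3 overlapped vehicle. The median log2 fold changes of tested features were 0.56, 0.96, 1.36 and 1.76. Of the 33 features that fell at 24 h, 17 were in the nearest group and 4 in the farthest. Spearman's rho between distance and log2 fold change was 0.29 at 24 h and 0.32 at 48 h over 1178 features, and between length and log2 fold change 0.00 and 0.03. Position along the host, from its start to its end, had rho -0.06 and -0.04.

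**Figure D4:**
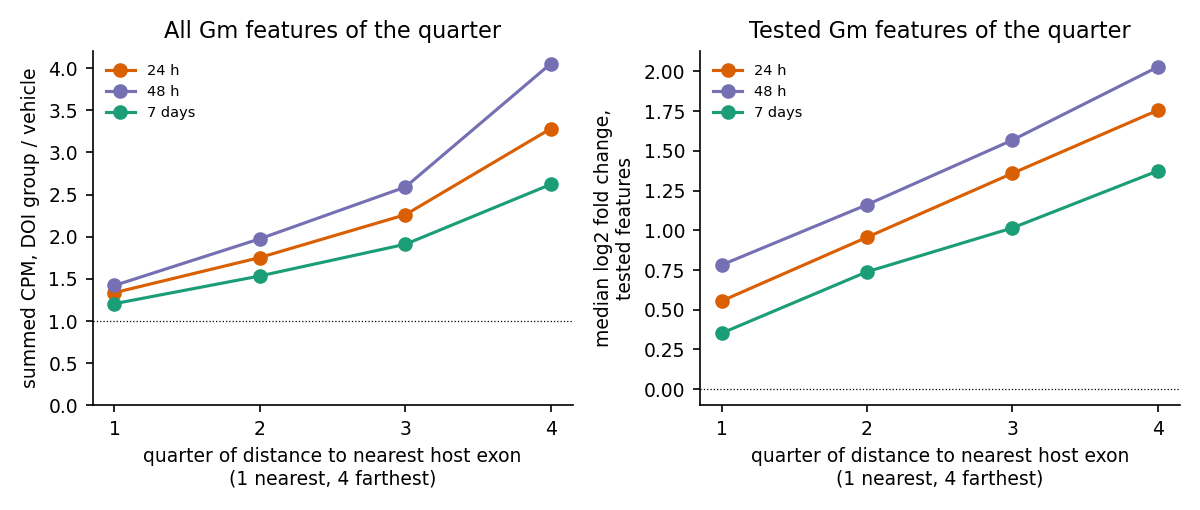
Features in 4 equal groups by distance to the nearest host exon, nearest first. Left: summed CPM of all features of the group relative to vehicle; right: median log2 fold change of the tested ones. At 24 h the values run from 1.34 to 3.28 times vehicle and from 0.56 to 1.76.

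The 3 hosts with the most features were Snhg14, Cntnap2 and Kcnip4. Kcnip4, an auxiliary subunit of Kv4 potassium channels, held 21 features, all tested, of which 14 rose and 0 fell at 24 h, beside 33.1% higher among all tested features and 13.8% among all tested genes. Relative to the host 18 rose, beside 28.9% of all pairs. Their summed level was 98.0, 125, 301 and 229 CPM in vehicle mice and 1214, 469, 433 and 770 at 24 h, and 125, 778, 193 and 938 at 7 days. The host itself was at 101 to 134 CPM in vehicle mice and 80.1 to 117 at 24 h, a log2 fold change of -0.35 ± 0.18 (edgeR adjusted p = 0.160). The features inside Kcnip4 ranged from 0.64 to 3.99 in log2 fold change, so every one lay above the host's value.

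Cntnap2, a neurexin-family adhesion protein of axons, differed from Kcnip4 in that the host rose too. Its 22 features summed to 35.6 to 81.1 CPM in vehicle mice and 146 to 296 at 24 h, and the host went from 65.7 to 76.8 CPM to 213 to 290, a log2 fold change of 1.77 ± 0.37 (edgeR adjusted p = 0.00445). Of 19 features tested, 7 rose and 1 fell at 24 h, and 1 rose relative to the host. Snhg14, the noncoding host of small nucleolar RNAs in the imprinted Prader-Willi and Angelman region, held the most features, 29, of which 4 were tested and all 4 rose. It too rose, by 1.37 ± 0.41 (adjusted p = 0.0224). In Adgrb3, 11 of 16 tested features rose at 24 h while the host had -0.03 ± 0.19. In Dlg2, the postsynaptic scaffold PSD-93, 11 of 16 rose and the host rose by 0.78 ± 0.24 (adjusted p = 0.0262). The share over all tested features was 33.1%. Among the 81 hosts with 3 or more tested features, all features had a positive log2 fold change at 24 h in 44 hosts and a negative one in 1, beside 957 of all 1178 tested features (81.2%) with a positive change.

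Of the 6 features named for their high counts, 5 rose at 24 h and 1 was not called. Gm37602 (chr1:25804097-25807406) lies in Adgrb3, 18598 bases from an exon. It was counted at 19.2, 10.2, 20.9 and 25.9 CPM in vehicle mice, 325, 198, 257 and 226 at 24 h, 245, 518, 244 and 215 at 48 h, and 13.0, 298, 12.5 and 376 at 7 days. Every mouse at 24 h and 48 h was above every vehicle mouse, and the 7 day mice divided 2 and 2. Its log2 fold change was 3.72 ± 0.79 at 24 h and 4.00 ± 0.80 at 48 h (edgeR adjusted p = 0.00464 and 0.00276), with Adgrb3 at 240 to 383 CPM in vehicle mice and 271 to 349 at 24 h.

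Gm45183 lies in Dlg2, 143563 bases from an exon, and was counted at 6.42, 11.0, 29.1 and 23.6 CPM in vehicle mice and 245, 215, 202 and 234 at 24 h. It rose by 3.67 ± 0.79 (edgeR adjusted p = 0.00493), and by 3.13 ± 0.68 relative to Dlg2 (limma adjusted p = 0.00323). Gm42772 and Gm43318, both in Kcnip4, rose by 2.16 ± 0.56 and 3.28 ± 0.73 at 24 h (edgeR adjusted p = 0.0121 and 0.00555). Gm42772 was at 29.1 to 80.7 CPM in vehicle mice and 125 to 401 at 24 h, while Kcnip4 was at 101 to 134 and 80.1 to 117. Gm17922, in the protocadherin gene Pcdh9, went from 4.25, 8.76, 13.6 and 11.0 CPM to 135, 87.5, 109 and 91.8, a change of 3.49 ± 0.72 (adjusted p = 0.00401), and Pcdh9 had a log2 fold change of 0.00.

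Gm37407, the feature with the most counts, 24659, lies 356 bases from an exon of R3hdm1, which encodes an R3H domain protein. It was at 141, 162, 207 and 256 CPM in vehicle mice and 279, 161, 143 and 171 at 24 h, and its log2 fold change was -0.02 ± 0.27 (edgeR adjusted p = 0.956). R3hdm1 rose by 1.15 (adjusted p = 0.0155), and the ratio of feature to host fell by 1.16 ± 0.30 (limma adjusted p = 0.00858).

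Some features went from almost no counts to several CPM. Gm42996, in Auts2, a nuclear protein of neuronal development, had 1 count over the 4 vehicle mice together and 251 at 24 h, a ratio of 338 with a 95% counting interval of 60.0 to 13386. The 24 h mice had 10.4, 5.95, 2.92 and 14.2 CPM, those at 48 h 6.66, 9.21, 9.63 and 4.92, and those at 7 days 0, 5.15, 0.350 and 7.28. Auts2 was at 35.4 to 55.7 CPM in vehicle mice and 46.1 to 79.8 at 24 h. Gm37581, in the zinc finger gene Zfp280d, had 1 count in vehicle and 242 at 24 h, a ratio of 325 (57.9 to 12908), with 7.01, 10.7, 6.34 and 8.76 CPM at 24 h and 0, 4.48, 0 and 8.12 at 7 days. Gm37219, in the FERM domain gene Epb41l5, went from 3 counts to 208, a ratio of 93.2 (31.5 to 456). These intervals cover counting error only.

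Gm44607 lies in Ntrk3, the neurotrophin-3 receptor TrkC. It had 6 counts over the vehicle mice and 23.6, 11.5, 7.10 and 20.2 CPM at 24 h, a ratio of 103 (46.9 to 282), while Ntrk3 was at 266 to 338 and 341 to 492 CPM with an adjusted p of 0.136. Gm44187 lies in Rab7, a GTPase of late endosomes. It was at 0, 1.02, 0.295 and 0.0973 CPM in vehicle mice, 22.8, 32, 27 and 36.7 at 24 h, 45.6, 40.5, 36.3 and 25.7 at 48 h, and 0.254, 27.3, 0.117 and 27.3 at 7 days. It had at most 9 counts in a vehicle mouse and passed the filter through the DOI mice where it is high, as did the other features of near-zero vehicle counts above, so no test is given for them. Rab7 was at 34.3 to 37.4 CPM in vehicle mice and 23.7 to 39.6 at 24 h. Gm44769, in Reep1, a protein that shapes the endoplasmic reticulum, was at 0.876 to 2.36 CPM in vehicle mice and 18.7 to 40.6 at 24 h. It did not pass the filter in the vehicle mice alone either, and no test is given.

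Among the features that fell, Gm43481 had the most counts of those named. It lies 409 bases from an exon of Gtf2i, which encodes the transcription factor TFII-I. It was at 116, 138, 120 and 122 CPM in vehicle mice, with Gtf2i at 110 to 145, and at 6.70, 14.9, 18.6 and 16.5 at 24 h, 10.1, 20.8, 15.0 and 13.8 at 48 h, and 99.7, 9.08, 167 and 14.3 at 7 days. It fell by 3.12 on the log2 scale at 24 h (SE 0.63, edgeR adjusted p = 0.00372) while Gtf2i rose by 0.52 (adjusted p = 0.0259). Mice 1 and 3 at 7 days had vehicle-like values for this feature, and mice 2 and 4 had values like those at 24 h.

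Gm6733 lies in Zzef1, which encodes a ZZ zinc finger protein. It was at 13.9, 13.0, 11.6 and 7.98 CPM in vehicle mice and 0.457, 1.19, 0.380 and 0.355 at 24 h, with 9.74, 0.336, 8.29 and 1.96 at 7 days. It had at most 8 counts in a 24 h mouse and passed the filter through the mice where it is high, so no test is given; Zzef1 had a log2 fold change of 0.40. Gm42635 in the protocadherin gene Pcdh7, 1151 bases from an exon, passed the filter in the same way and is given with no test: it was at 5.48, 8.30, 11.0 and 21.7 CPM in vehicle mice and 0.152, 1.64, 0.507 and 1.66 at 24 h. Of the 13 tested features of that host, 4 rose. Gm43389 in Klhl7, an adaptor of ubiquitin ligases, fell by 2.36 (SE 0.53, adjusted p = 0.00563), and Gm47963 in Msantd2 fell by 2.28 (SE 0.63, adjusted p = 0.0165). At 48 h Gm26930, in Gm4258, fell by 2.59 (SE 0.76, adjusted p = 0.0176), from 7.18 to 10.7 CPM in vehicle mice to 0 to 2.68.

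Gm44639, in the hydrolase gene Abhd2, illustrates a ratio that fell through its host. The feature was at 6.70, 6.94, 4.03 and 7.79 CPM in vehicle mice and 15.7, 4.46, 5.71 and 5.33 at 24 h, while Abhd2 went from 6.23 to 8.19 CPM to 52.1 to 79.4. Abhd2 rose by 3.21 (edgeR adjusted p = 0.00153), the feature had 0.29 ± 0.40 (adjusted p = 0.620), and the ratio fell by 3.02 (SE 0.60, limma adjusted p = 0.00225).

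**Figure D5:**
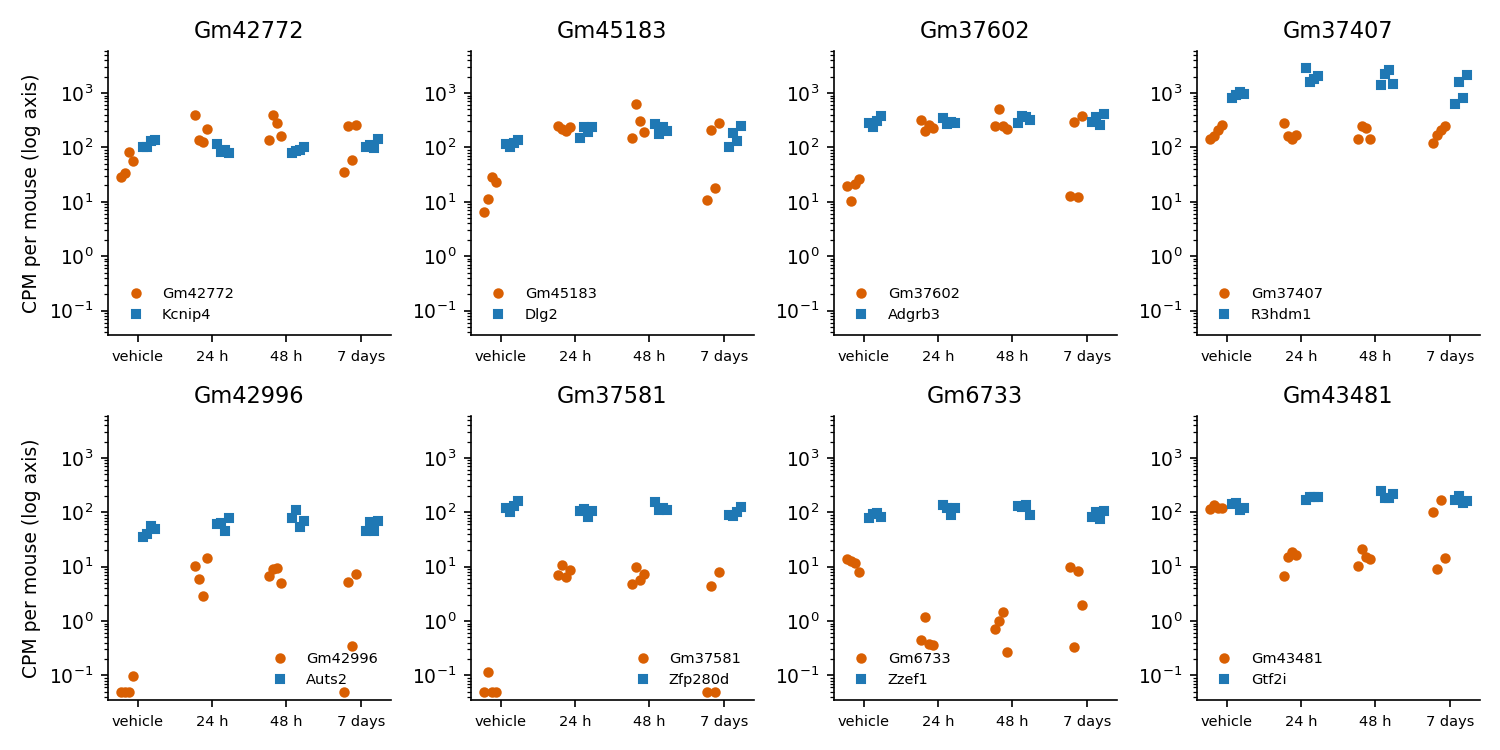
CPM per mouse on a log axis for 8 Gm features (circles) and their hosts (squares), 4 mice per group; values of 0 are drawn at 0.05. At 24 h, 5 features lie above their vehicle range (Gm42772, Gm45183, Gm37602, Gm42996, Gm37581) and Gm6733 and Gm43481 lie below it, while Gm37407 spans its vehicle range and R3hdm1 rises.

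Hosts were also grouped by known function, with lists chosen when earlier results of these data were known. Ion channel hosts held 33 features, of which 30 were tested and 20 rose at 24 h and 0 fell, with summed CPM 3.56 times vehicle. Hosts for postsynaptic scaffolds and signalling held 29, of which 24 were tested and 15 rose and 0 fell. Among them, Gm45182 in Dlg2 rose by 1.96 ± 0.56 (edgeR adjusted p = 0.0181), a call lost without vehicle mouse 1 or 2 or 24 h mouse 4. Cell adhesion hosts held 55, of which 43 were tested, and 21 rose and 1 fell. Here Gm44235, in Ctnna2, the neuronal alpha-catenin, went from 1.23, 1.14, 3.64 and 6.33 CPM to 139, 78.4, 58.4 and 95.3. It did not pass the filter on low counts in the vehicle mice alone, so no test is given for it. Ctnna2 rose by 0.74 (edgeR adjusted p = 0.0280). Gm44433, in the same gene, rose by 1.79 ± 0.53 (adjusted p = 0.0226), a call lost without any 1 of vehicle mice 1, 2 and 4 or 24 h mice 1 and 4. Over all 152 features in listed hosts, 63 of 124 tested rose and 2 fell, with a median of 1.71, beside 33.1% higher and 1.22 for all tested features.

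Glutamate receptor hosts held 15 features, of which 12 were tested, and 2 rose and 1 fell at 24 h, beside 33.1% and 2.8% of all tested features. The 2 with the most counts lie in Grm5, the metabotropic receptor mGluR5. Gm44848 was at 9.91, 12.5, 16 and 22.7 CPM in vehicle mice, 6.70, 9.82, 9.64 and 6.04 at 24 h and 13.2 to 23.1 at 48 h, and had -0.92 ± 0.29 at 24 h (edgeR adjusted p = 0.0293) and 0.19 at 48 h (0.641). That call was lost without vehicle mouse 3 or 4 or 24 h mouse 1 or 4. Gm44846 had 0.38 ± 0.34 at 24 h (adjusted p = 0.428) and 0.87 ± 0.34 at 48 h (0.0590). GABA receptor hosts held 5 features, 2 of them tested. Gm17984 in Gabrg3 was at 0.944, 1.14, 1.57 and 0.584 CPM in vehicle mice. It was at 2.59, 2.53, 2.41 and 3.55 CPM at 24 h and 1.01, 5.19, 11.0 and 2.53 at 48 h. The filter was not passed in the vehicle mice alone, so no test is given for it.

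RNA-binding hosts held 9 features, all tested, of which 2 rose at 24 h, beside 33.1% of all tested features. Gm10855, in the splicing regulator Celf2, went from 2.08, 0.569, 1.47 and 0.973 CPM to 37.6, 36.6, 24.7 and 57.2. It did not pass the filter on low counts in the vehicle mice alone, so no test is given for it. Celf2 rose by 1.27 (edgeR adjusted p = 0.0129). Gm37999, in Khdrbs2, 992 bases from an exon, was level at -0.14 ± 0.46 (adjusted p = 0.844). Homer1, an activity-regulated scaffold gene of glutamate synapses, held both features of the activity-regulated list. Gm47088 rose by 2.21 ± 0.66 at 24 h (adjusted p = 0.0221; 0.0978 at 48 h), a call lost without 24 h mouse 4 or vehicle mouse 1, 2 or 4, and Gm47075 had 1.33 ± 1.15 (0.407). Homer1 itself had -0.04. Membrane traffic hosts held 6 features, 4 of them tested, and 3 rose at 24 h, beside the same 33.1%. Gm5136, in Syt1, the calcium sensor of vesicle release, had 0.94 ± 0.47 (adjusted p = 0.146).

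The features named for their p at 7 days, Gm37219, Gm42996 and Gm44043, had at most 1 count in any vehicle mouse and entered the test through the DOI mice, so their values are given with no test. Gm44043, in Gm21814, was at 1.02, 9.30, 1.05 and 0 CPM in the 7 day mice and at 0.0944, 0, 0 and 0.0973 in the vehicle mice. Gm37219 was at 0.508, 9.19, 0.117 and 14.6 CPM at 7 days, high in mice 2 and 4.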

How the data were processed

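Libraries were made with SMART-seq2 and Nextera XT, per the labels' protocols. Deposited files hold unnormalised counts for every gene ID, from featureCounts 2.0.0 over exons with no strand or overlap option, per the file headers. The aligner is not given in the sources used here. Both libraries of each animal were added together before testing. Counts were filtered (filterByExpr), scaled (TMM) and fitted with edgeR 4.0.16 in R 4.3.3 over the 4 groups, with Benjamini-Hochberg adjustment over 17941 genes and a threshold of 0.05. Feature to host ratios used log2 CPM (prior count 2) and limma 3.58.1, adjusted over 1746 pairs; the host was the spanning gene with the most counts. Both fits were tested on simulated data. Alternatives included DESeq2 1.42.0, other scaling and filters, single libraries, a block, the 18S share and each mouse left out. Features were named by abundance, size of change, smallest p, host list and crowded hosts. Features, lists and rules were chosen with earlier results of these data known. Intervals cover counting error only. One named feature is not reported here.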

Additional observations from a re-analysis of the deposited data

Results flagged for a closer look

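Among 148 groups of 4 mice checked, for the named features and 4 measures of the whole libraries, 11 held 1 mouse far from the others by Dixon's criterion, which chance meets in about 1 group of 20. High values were Gm37602 in 48 h mouse 2, at 518 CPM beside 215 to 245 in the others, and Gm44639 in 24 h mouse 1, at 15.7 CPM beside 4.46 to 5.71. Gm44043 was high in 24 h mouse 1, at 8.38 CPM beside 3.68 to 4.17, and in 7 day mouse 2, at 9.30 CPM beside 0 to 1.05. Gm6733 was at 1.19 CPM in 24 h mouse 2 beside 0.355 to 0.457, and Gm17984 at 3.55 CPM in 24 h mouse 4 beside 2.41 to 2.59. Low values were Gm49628 in vehicle mouse 2, at 7.96 CPM beside 11.9 to 12.1, and Gm43389 in 48 h mouse 4, at 1.06 CPM beside 2.03 to 2.18. The remaining 3 rest on single counts in vehicle mice. Gm37219 was at 0 CPM in mouse 3 beside 0.0944 to 0.114, Gm42996 at 0.0973 CPM in mouse 4 and Gm37581 at 0.114 CPM in mouse 2, the others being at 0.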

How the results depend on the processing

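With the 18S share as a covariate, edgeR called 0 features and 0% of all tested genes at 24 h and 48 h. The ratio test with it called 0 features and 0% of all pairs at 24 h and 48 h (added after the data were seen). The medians of the features by edgeR were -0.072, 0.042 and 0.064 at 24 h, 48 h and 7 days. The log2 fold change of named features then turned sign in 26 of 81 values, 13 of them not called without the covariate. The 13 called ones were, at 24 h, Gm49628 (0.48), Gm47088 (-1.01), Gm43481 (0.38), Gm47963 (0.072), Gm37814 (-0.67) and Gm43511 (0.15), and at 48 h Gm26930 (0.52), Gm10855 (-0.13), Gm43481 (0.47), Gm17984 (-0.10), Gm47963 (0.043), Gm37814 (-0.34) and Gm43511 (0.11). Of these, Gm10855 and Gm17984 did not pass the filter in the vehicle mice alone and are given above with no test. The 18S share of the vehicle mice overlaps that of no 24 h or 48 h mouse, so share and group cannot be told apart there. At 7 days DESeq2 called 167 features, the fit with no filter 260, and edgeR with the host as offset 66 ratios. The shares beside them were 4.44% and 2.62% of all tested genes and 6.53% of all pairs. Restricting to features counted in vehicle mice (added later) gave 241 and 302 calls with medians of 0.78 and 0.97, with no share of all genes under that rule. Leaving out the 3 mice with another header number (added later) gave 267 at 24 h, beside 19.4% of all tested genes. Leaving out each mouse left 219 to 404 features called at 24 h, 319 to 513 at 48 h and, for 7 days, 0 to 254 features and 0 to 107 ratios. Other scaling, filters and single libraries kept the counts at 24 h and 48 h within 1.5 times. Mouse numbers did not pair the samples: over 24 pairs of equal number the mean correlation was -0.04 (-0.28 to 0.24). With mouse number as a replicate block, 355, 458 and 0 features were called at 24 h, 48 h and 7 days, beside 20.4%, 26% and 0% of all tested genes. At 7 days 324 features had an unadjusted edgeR p under 0.05, beside 14.7% of all tested genes. The medians of the features were 1.27, 1.41 and 0.85.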
